A study of Mus musculus with 6 samples.

Results

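The genes described here are the glutathione transferases and the antioxidant genes governed by NRF2 in the epididymal white adipose tissue (eWAT) of mice with cancer-associated cachexia (CAC) and of control mice (CONT). They were chosen by name among the protein-coding genes of the deposited table. The choice took the alpha, kappa, mu, omega, pi, theta and zeta classes of cytosolic and mitochondrial transferases, Mgst1 to Mgst3, Gpx1 to Gpx4, Prdx1 to Prdx6, and 14 single genes: Nfe2l2, Keap1, Nqo1, Hmox1, Gclc, Gclm, Gsr, Gss, Srxn1, Txn1, Txnrd1, Sod1, Sod2 and Sod3. This gave 49 of the 55039 genes listed. The rule itself uses names and no expression value, but it was drawn up with earlier results of these data known. All 6 animals were male C57BL/6 mice that were 6 to 7 weeks old at the start. The CAC mice received 5000000 LLC cells, a Lewis lung carcinoma line, under the skin, and the CONT mice received PBS. The eWAT, which lies along the epididymis, was collected on day 28 after injection from 3 mice of each group, and each mouse gave 1 mRNA library. The model therefore rests on 1 tumor cell line in 1 sex, and the tissue was sequenced whole.

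NRF2, the product of Nfe2l2, is a transcription factor that KEAP1 marks for degradation in unstressed cells. When electrophiles or oxidants modify KEAP1, NRF2 accumulates, pairs with a small MAF protein and binds antioxidant response elements near genes for glutathione synthesis, conjugation and thiol reduction. Glutathione transferases join glutathione to reactive compounds, among them the aldehydes that arise when the lipids of cells such as adipocytes are oxidized.

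The libraries held 15713794 to 20638492 counts in CONT and 22829269 to 25926425 in CAC. Levels are given as CPM, which scales counts to a library size adjusted by TMM, always in the order of replicates 1, 2 and 3. The libraries did not stand on equal footing. Mitochondrial genes took 30.2% of the counts of CONT replicate 1 and 3.89 to 5.04% of the other libraries. In CONT replicate 1 the 350 abundant genes under 1500 bases were higher by a median of 1.03 on the log2 scale than the mean of the other 2 CONT libraries, and the 2836 above 5000 bases were lower, at a median of -0.30. Of the 49 genes, 26 are under 2000 bases long, and 35 of the 45 tested were higher in CONT replicate 1 than the mean of the other 2 CONT libraries, with a median difference of 0.50 (log2). For the genes whose values rest on that library, the log2 fold change without it is therefore given as well. All 10 adipocyte markers were detected, with summed levels of 24482 to 56419 CPM in CONT and 36755 to 50276 CPM in CAC. In whole tissue, fewer cells of a type and less RNA per cell cannot be told apart.

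The antioxidant response element has the core TGACNNNGC, where N is any base. Its letters were looked for on both strands of the 250 bases before each start site in the RefSeq promoter table (GRCm38.p6), in which 42 of the 49 genes have an entry. They were found for 9 of these 42 genes, 21.4%, against 3112 of all 27025 genes, 11.5%. Some genes have several start sites and so several windows. Counted by window, the shares were 9 of 56, 16.1%, against 3338 of all 32851, 10.2%. The 9 sites are shown because they are the sequence feature on which the pathway is known to turn. Each is read 5′ to 3′ on the strand of its gene with 10 bases on either side, and the capitals mark the core, which reads GCNNNGTCA where it lies on the opposite strand.

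Gclm, chr3:122245413-122245441, plus strand: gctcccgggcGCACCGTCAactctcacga
Gsta3, chr1:21240454-21240482, plus strand: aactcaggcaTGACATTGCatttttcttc
Gstm5, chr3:107895802-107895830, plus strand: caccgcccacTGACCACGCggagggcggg
Gstm7, chr3:107931725-107931753, minus strand: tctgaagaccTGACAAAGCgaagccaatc
Mgst1, chr6:138140461-138140489, plus strand: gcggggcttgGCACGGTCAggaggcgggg
Nfe2l2, chr2:75704885-75704913, minus strand: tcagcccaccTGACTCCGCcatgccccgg
Prdx1, chr4:116685456-116685484, plus strand: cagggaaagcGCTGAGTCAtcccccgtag
Sod1, chr16:90220696-90220724, plus strand: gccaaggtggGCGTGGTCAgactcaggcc
Txnrd1, chr10:82859104-82859132, plus strand: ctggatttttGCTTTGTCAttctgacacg

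The core lay on the strand of the gene in 4 sites and on the opposite strand in 5. It started 240 bases before the start site in Nfe2l2 and 42 bases before it in Gstm5, the outermost and innermost positions. The sites of Gstm5, Gstm7 and Mgst1 touch an annotated exon of the gene. The Prdx1 site also holds the letters TGACTCA on the opposite strand, which AP-1 factors are known to bind, and it was the 1 site of the 9 that did. Of the 10 genes below the unadjusted threshold used below that have a promoter entry, 3 carry the core: Gsta3 and Mgst1, which were higher in CAC, and Gstm7, which was lower. A match of letters is a description of the sequence and no evidence of binding.

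The full 250 bases before the start site are shown for 3 genes with a core outside any annotated exon: Gsta3, a transferase with an unadjusted p under 0.05, Gclm, a subunit of the enzyme that limits glutathione synthesis, and Nfe2l2 itself.

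Gclm, chr3:122245307-122245556, plus strand: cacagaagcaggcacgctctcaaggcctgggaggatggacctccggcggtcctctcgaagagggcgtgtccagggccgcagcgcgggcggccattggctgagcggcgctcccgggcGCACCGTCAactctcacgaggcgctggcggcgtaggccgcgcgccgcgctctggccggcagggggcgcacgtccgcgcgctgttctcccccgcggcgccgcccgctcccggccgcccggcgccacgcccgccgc
Gsta3, chr1:21240335-21240584, plus strand: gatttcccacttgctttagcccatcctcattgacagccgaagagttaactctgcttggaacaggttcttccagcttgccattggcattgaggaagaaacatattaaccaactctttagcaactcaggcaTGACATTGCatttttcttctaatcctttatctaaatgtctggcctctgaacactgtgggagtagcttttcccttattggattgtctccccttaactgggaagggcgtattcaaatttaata
Nfe2l2, chr2:75704664-75704913, minus strand: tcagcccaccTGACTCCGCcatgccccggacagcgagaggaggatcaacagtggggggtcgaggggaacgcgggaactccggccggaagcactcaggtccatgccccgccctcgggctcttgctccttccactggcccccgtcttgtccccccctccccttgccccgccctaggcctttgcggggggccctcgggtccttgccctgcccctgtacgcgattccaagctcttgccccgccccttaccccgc

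The GC content of the window is 42.0% for Gsta3, 78.4% for Gclm and 70.4% for Nfe2l2, and the median over the windows of all genes of the set is 56.6%.

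CAC tissue held more mRNA of the membrane transferases Mgst1 and Mgst2, of Gsto1, Gsta3 and Gstp3, and of Gclc, the catalytic subunit of the enzyme that starts glutathione synthesis, at an unadjusted p under 0.05. It held less of Gstm2, Gstm4, Gstm6, Gstm7 and Gstt1 by the same measure. Among the former the folds ran from 1.93 for Mgst2 to 4.79 for Gstp3, which had few reads. Among the latter they ran from 1.72 for Gstm2 to 6.66 for Gstm6. None of these differences passed the adjustment for multiple tests in edgeR. Of the 49 genes, 45 passed edgeR's filter on low counts and were tested among 17296 genes. Gsta1, Gsta2, Gpx2 and Gstm3 did not pass, and none of them exceeded 1.09 CPM in any library. Gstp3 passed mainly through the CAC libraries, with 12, 8 and 9 counts in CONT and 19, 92 and 107 in CAC. It drops out where at least 10 counts are asked of every library. An adjusted p under 0.05 in edgeR's quasi-likelihood test was reached by 0 of the 45 and by 0 of all 17296 (0%). At an unadjusted p under 0.05 there were 11 of the 45 genes (24.4%), where the share of all genes tested was 13.3%. Of these, 6 were higher in CAC (13.3%, against 6.31% of all genes) and 5 were lower (11.1%, against 6.95%). The groups did not overlap for 10 genes (22.2%), close to the 22.5% of all genes. All CAC libraries lay above all CONT libraries for 6 of them (13.3%, against 11.8%) and below for 4 (8.89%, against 10.7%). For a single gene, 3 against 3 libraries allow a two-sided exact permutation p of 0.1 at the smallest. The median log2 fold change, CAC over CONT, was 0.11 over the 45 genes and -0.06 over all genes tested, and 25 of the 45 were above 0. DESeq2, the tool of the study, gave 5 of 44 genes an adjusted p under 0.05 (11.4%, against 5.62% of all genes): Mgst2 and Gsto1 were higher in CAC and Gstm2, Gstm6 and Gstm7 lower. With 1 library left out in turn, the unadjusted edgeR p stayed under 0.05 in all 6 fits for 4 of the 11 genes, Mgst2, Gsto1, Gstm2 and Gstm6, and did not in at least 1 fit for the other 7. Limma's voom with sample quality weights called 9 of the 45 (20%, against 5.51%), the same 5 and also Mgst1, Gsta3, Gpx3 and Sod1, all higher in CAC.

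**Figure D1:**
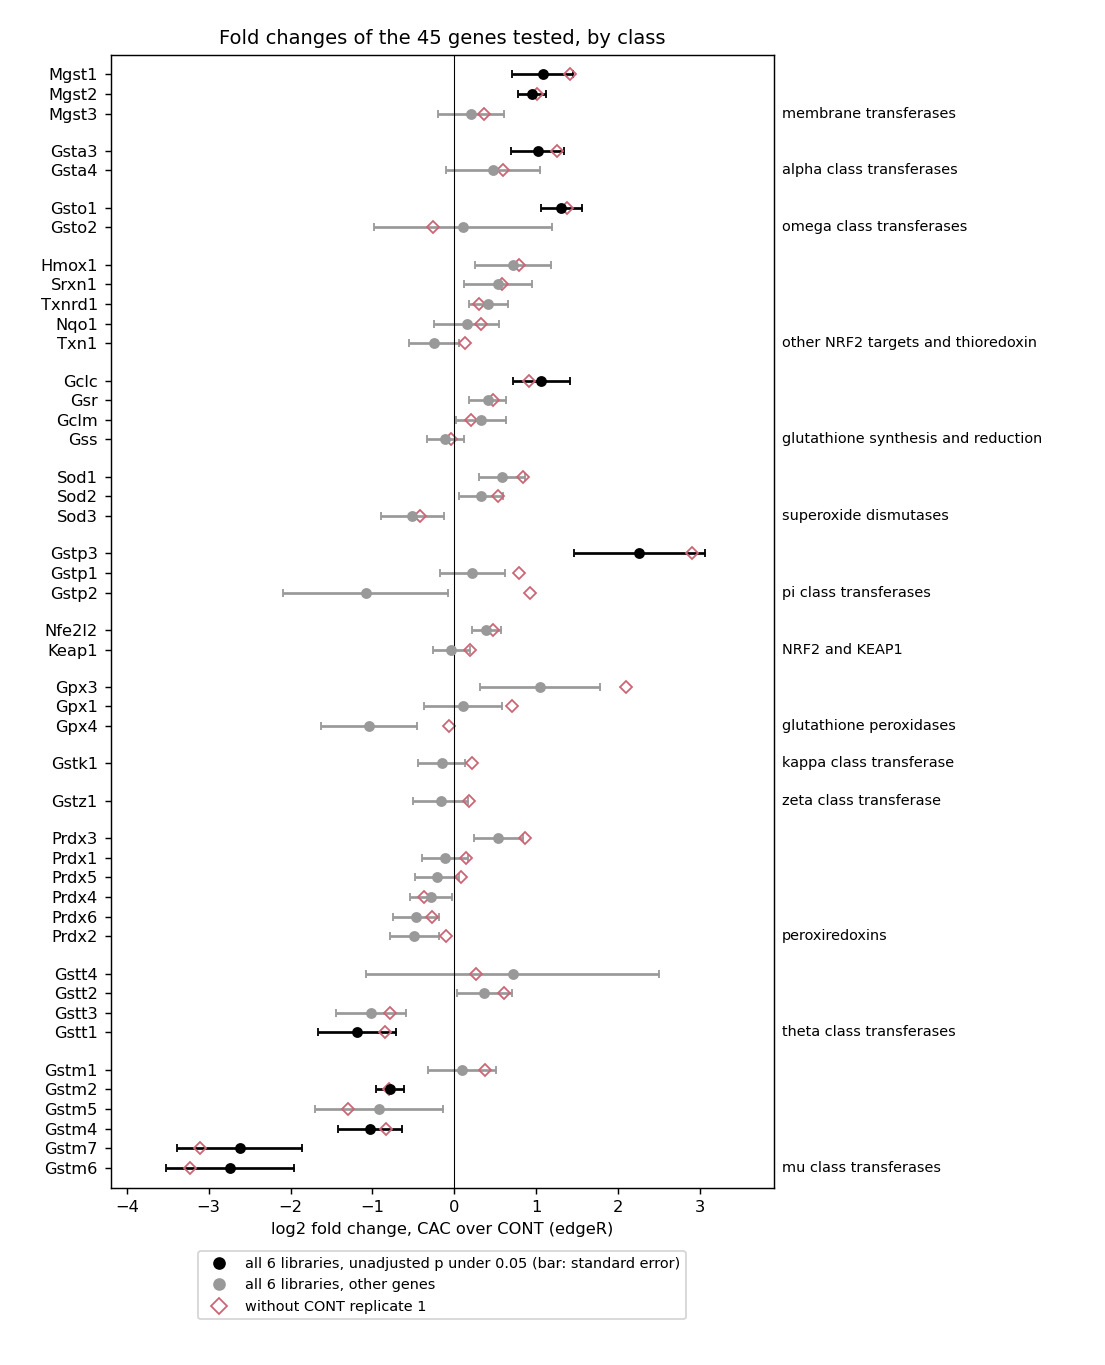
Log2 fold changes, CAC over CONT, of the 45 genes tested, grouped by class, with circles for all 6 libraries (bar, standard error) and open diamonds for the fit without CONT replicate 1. The mu class holds the 2 lowest values, Gstm6 at -2.73 and Gstm7 at -2.62, and the membrane transferase Mgst2 lies near 1 with both fits, while Mgst1 goes from 1.079 to 1.41. Gpx3 and Gpx4 are far from their diamonds.

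Among the regulators, Nfe2l2, which encodes NRF2, was at 86.1, 67.8 and 83.4 CPM in the CONT libraries and at 111, 105 and 94.6 CPM in the CAC libraries. No CAC library was as low as a CONT library, and the log2 fold change was 0.39 ± 0.18 (SE; edgeR adjusted p = 0.408). Without CONT replicate 1 it was 0.47, with an adjusted p of 0.296. Keap1, which encodes the adaptor that holds NRF2 down, stood at 91.6, 57.9 and 64.1 CPM in CONT and 61.3, 72.2 and 74.4 CPM in CAC. The groups overlapped, the highest value being that of CONT replicate 1, and the log2 fold change of -0.04 ± 0.22 was within its standard error and became 0.20 without that library.

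Glutathione is made by glutamate-cysteine ligase, with the catalytic subunit Gclc and the modifier subunit Gclm, followed by glutathione synthetase, Gss. Gclc measured 29.1, 42.3 and 43.9 CPM in CONT and 45.5, 88.9 and 107 CPM in CAC, without overlap, although CAC replicate 1 stood only just above the highest CONT library. This gave a log2 fold change of 1.06 ± 0.35 (edgeR adjusted p = 0.304). The unadjusted edgeR p of Gclc, 0.0199, was 0.0684 without CONT replicate 1, 0.0613 without CAC replicate 2 and 0.0648 without CAC replicate 3. In the same order, the log2 fold changes of these fits were 0.911, 0.996 and 0.815. For Gclm the CONT libraries gave 44.9, 50.4 and 71.4 CPM and the CAC libraries 49.2, 62.9 and 96.9 CPM. These values overlapped, with a log2 fold change of 0.33 ± 0.31, and CAC replicate 3 was highest: without it the log2 fold change was 0.022, and without CAC replicate 1 it was 0.57. Gss differed by -0.11 ± 0.22 on the log2 scale, and its locus overlaps the opposite-strand gene Acss2, which held 15467 counts against 2931 for Gss. Since the strand setting of the counting is not given in the sources used here, reads of the 2 genes may have been mixed. Gsr, the reductase that restores glutathione, had a log2 fold change of 0.41 ± 0.23, overlapped between groups, and went to 0.20 without CAC replicate 3 and to 0.61 without CAC replicate 1.

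Of the other classical NRF2 targets, Nqo1, Hmox1, Srxn1, Txn1 and Txnrd1, 0 of 5 had an unadjusted p under 0.05, where the share of all genes was 13.3%. Their median log2 fold change was 0.42, with 4 of 5 above 0, against -0.06 over all genes, and without CAC replicate 3 it was -0.0033, with 2 of 5 above 0, against -0.09. Without CAC replicate 1, Srxn1 and Txnrd1 were higher at an unadjusted p under 0.05 (40%, against 6.31%). Nqo1, a quinone reductase often used as a readout of NRF2 activity, was at 10.8, 6.18 and 9.49 CPM in CONT and 6.69, 14.5 and 8.12 CPM in CAC. Its log2 fold change was 0.15 ± 0.40, and the sign turned when CONT replicate 2 or CAC replicate 2 was left out. Hmox1, the heme oxygenase that opens the heme ring, was at 47.0, 38.4 and 43.4 CPM in CONT and 44.5, 39.8 and 127 CPM in CAC. CAC replicate 3 alone was high, and without it the log2 fold change went from 0.72 to -0.02. Srxn1, which repairs overoxidized peroxiredoxins, followed the same library, with 34.2, 33.2 and 29.8 CPM in CONT and 22.9, 41.3 and 76.6 CPM in CAC. Its log2 fold change of 0.54 became -0.0033 without CAC replicate 3. Txnrd1, the cytosolic thioredoxin reductase, was at 70.6, 88.7 and 98.3 CPM in CONT and 90.4, 109 and 145 CPM in CAC. The groups overlapped and the log2 fold change was 0.42 ± 0.24, and 0.23 without CAC replicate 3. Txn1, the cytosolic thioredoxin, had a log2 fold change of -0.25 ± 0.30, and it was highest in CONT replicate 1, without which it had one of 0.13. CAC replicate 3 was also the library with the highest neutrophil signal: the 5 neutrophil markers summed to 4.99 to 55.3 CPM in CONT and to 151, 241 and 1048 CPM in CAC, and 4 of the 5 were higher in CAC at an unadjusted p under 0.05 (80%, against 6.31% of all genes). The part of those cells in the Hmox1 and Srxn1 values was not tested.

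**Figure D2:**
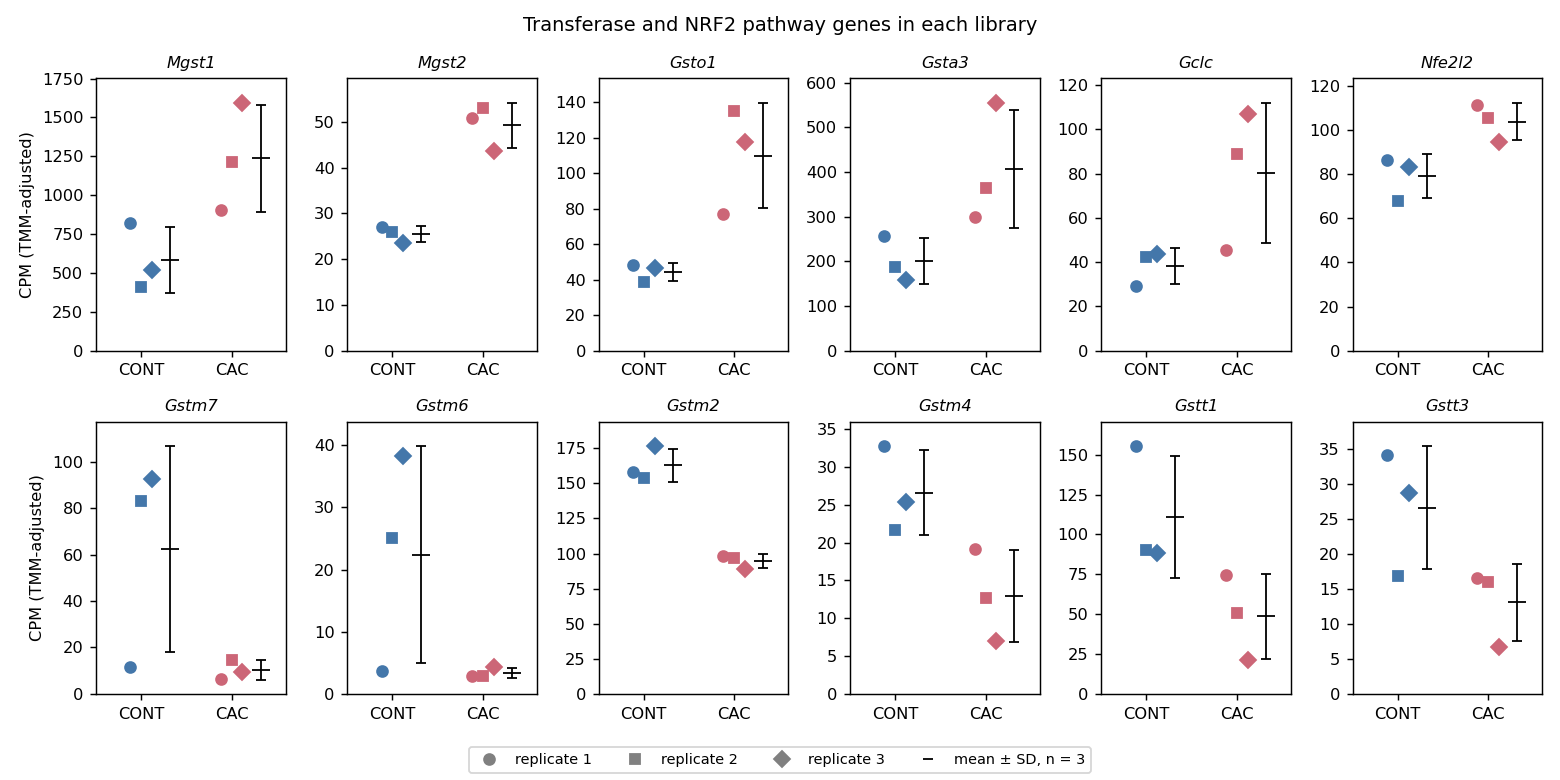
CPM of 12 genes in each library (markers, replicates 1 to 3) with the mean and SD of each group (n = 3). Mgst2 and Gstm2 show tight groups that do not overlap, the CAC libraries of Gsto1 are spread but all above CONT, and the Gstm6 and Gstm7 values of CONT replicate 1 lie near the CAC libraries.

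Among the transferases higher in CAC were 2 of the 3 membrane-bound enzymes (66.7%, against 6.31% of all genes). Mgst2, a microsomal enzyme that can conjugate glutathione to leukotriene and lipid substrates, was at 27.1, 25.8 and 23.6 CPM in CONT and 50.9, 53.0 and 43.7 CPM in CAC. The means were 25.5 ± 1.80 and 49.2 ± 4.86 CPM (SD, n = 3), and the lowest CAC library was well above the highest CONT library. The log2 fold change was 0.95 ± 0.17 with an edgeR adjusted p of 0.215. DESeq2 gave an adjusted p of 9.9e-05, and over the alternatives it ranged from 9.9e-05 to 0.684. Mgst1, the abundant microsomal transferase that also reduces lipid hydroperoxides, measured 821, 413 and 522 CPM in CONT and 902, 1216 and 1591 CPM in CAC. The groups did not overlap, with a log2 fold change of 1.079 ± 0.37 (edgeR adjusted p = 0.319), although CONT replicate 1 lay close to CAC replicate 1. Without CONT replicate 1 it was 1.41 ± 0.33. The unadjusted p of Mgst1, 0.025, was between 0.0592 and 0.0818 in the 4 fits without CONT replicate 2, CONT replicate 3, CAC replicate 2 or CAC replicate 3. Mgst3, the third member, was at 178, 122.6 and 147 CPM in CONT and 281, 129 and 104 CPM in CAC. It overlapped, was high in CAC replicate 1 alone, and had a log2 fold change of -0.32 without that library.

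Gsto1, an omega class transferase with thiol transfer activity, was at 48.3, 38.5 and 46.5 CPM in CONT and 77.1, 135 and 118 CPM in CAC. All 3 CAC libraries were above all 3 CONT libraries, with means of 44.4 ± 5.23 and 109.8 ± 29.7 CPM (SD, n = 3). CAC over CONT came to 1.31 ± 0.25 on the log2 scale (edgeR adjusted p = 0.215). DESeq2 gave an adjusted p of 0.000959, and the range over the alternatives was 0.000959 to 0.684. The opposite-strand gene Cfap43 overlaps the Gsto1 locus, and its counts came to 28.7% of those of Gsto1.

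Gsta3, an alpha class transferase, measured 257, 187 and 158 CPM in CONT and 300.2, 365 and 554 CPM in CAC. CONT and CAC did not overlap and CAC replicate 3 was highest, with a log2 fold change of 1.02 ± 0.33 (edgeR adjusted p = 0.295). Its unadjusted p, 0.0179, was between 0.0574 and 0.0625 without CONT replicate 2, CONT replicate 3 or CAC replicate 3. Gsta4, the alpha class enzyme known for conjugating 4-hydroxynonenal, an aldehyde of oxidized lipids, was at 41.8, 35.2 and 32.7 CPM in CONT and 32.2, 100.2 and 19.9 CPM in CAC. The high value was in CAC replicate 2 alone, and the log2 fold change of 0.47 ± 0.57 became -0.48 without it. Gstp3, a low-abundance pi class gene, was at 1.07, 0.350 and 0.407 CPM in CONT and 0.780, 3.71 and 4.04 CPM in CAC. Its log2 fold change of 2.26 ± 0.80 (edgeR adjusted p = 0.329) came from CAC replicates 2 and 3, since CAC replicate 1 lay within the CONT range. With 1 library left out it lay between 1.93 and 2.90. The unadjusted p of Gstp3, 0.0276, was between 0.0789 and 0.106 in 4 of the 6 fits with a library left out, those without CONT replicate 2, CONT replicate 3, CAC replicate 2 or CAC replicate 3. Gstp1, the main pi class gene, had a log2 fold change of 0.22 ± 0.40 with all libraries and of 0.79 without CONT replicate 1 (edgeR adjusted p = 0.242). Of the 75-base stretches of its transcript, 57.7% also occur in Gstp2 or a pseudogene, so the split of reads between these copies is uncertain.

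In the mu class the direction was mostly the opposite. Of its 7 genes, 6 were tested, 4 were lower in CAC at an unadjusted p under 0.05 (66.7%, against 6.95% of all genes) and 0 were higher (against 6.31%). The median log2 fold change was -0.97, against -0.06 over all genes, and without CONT replicate 1 it was -1.07, against -0.03, with 3 genes lower (50%, against 8.28%). Gstm2 was at 158, 154 and 176 CPM in CONT and 98.2, 96.6 and 88.8 CPM in CAC. The spread within each group was small, with means of 163 ± 11.9 and 94.6 ± 5.003 CPM (SD, n = 3), and the groups lay far apart. The log2 fold change was -0.78 ± 0.17 (edgeR adjusted p = 0.228), and DESeq2 gave an adjusted p of 0.000308 within a range of 0.000308 to 0.684 over the alternatives. When a library was left out it stayed between -0.82 and -0.71.

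Gstm7 was at 11.6, 83.2 and 92.4 CPM in CONT and 6.32, 14.8 and 9.33 CPM in CAC. CONT replicates 2 and 3 were high, while CONT replicate 1 lay within the CAC range. CAC over CONT came to -2.62 ± 0.76 on the log2 scale (edgeR adjusted p = 0.275) with all libraries and -3.10 ± 0.38 without CONT replicate 1 (edgeR adjusted p = 0.197). Its unadjusted p was 0.0525 without CAC replicate 1. Its neighbour Gstm6 had the same shape, with 3.75, 25.1 and 38.3 CPM in CONT and 2.83, 2.95 and 4.30 CPM in CAC. Again CONT replicate 1 fell among the CAC values. This gave a log2 fold change of -2.73 ± 0.78 (edgeR adjusted p = 0.275) and -3.23 ± 0.32 without that library. Without CONT replicate 3 the log2 fold change was -2.09 ± 0.81 for Gstm6 and -2.21 ± 0.84 for Gstm7. DESeq2 gave adjusted p values of 0.0117 for Gstm7 and 0.0112 for Gstm6, the lowest over the alternatives, whose highest values were 0.684 and 0.687. Both CONT libraries that were high in these genes also held markers of other tissue. Testis markers summed to 1391 CPM in CONT replicate 2, and to 1982 CPM in CAC replicate 3. Epididymis markers summed to 11858 CPM in CONT replicate 3. The part of such RNA in the Gstm6 and Gstm7 values was not tested.

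Gstm4 measured 32.7, 21.7 and 25.3 CPM in CONT and 19.2, 12.7 and 7.06 CPM in CAC, without overlap and lowest in CAC replicate 3. This gave a log2 fold change of -1.03 ± 0.39 (edgeR adjusted p = 0.345), and -0.84 without CONT replicate 1. The unadjusted p of Gstm4, 0.0354, was between 0.0613 and 0.12 in 4 of the 6 fits with a library left out, those without CONT replicate 1, CONT replicate 3, CAC replicate 2 or CAC replicate 3, and 0.0554 with an offset for gene length. Gstm1, the gene with the highest level per length in the class, was at 539.7, 337 and 338 CPM in CONT and 284, 686 and 328 CPM in CAC. The groups overlapped and the log2 fold change was 0.10 ± 0.41, between -0.39 and 0.37 with 1 library left out. The make-up of the class by FPKM, reads per length and library total, differed accordingly. Gstm6 and Gstm7 together made up 1.74, 11.4 and 15.4% of the FPKM of the mu class in CONT and 1.86, 1.89 and 2.06% in CAC. The whole class summed to 789.5, 836 and 765 CPM in CONT and to 437, 846 and 565 CPM in CAC, which overlapped, with the highest value in CAC replicate 2. Without Gstm1 it summed to 249.8, 499 and 427 CPM in CONT and to 153, 160.0 and 237 CPM in CAC, with CAC replicate 3 just below CONT replicate 1.

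The mu genes form a cluster on chromosome 3 from 107895821 to 108044894 (GRCm38), 149.1 kb long. The order is Gstm5, Gstm7, Gstm6, Gstm3, Gstm2, Gstm1 and Gstm4, with Gstm5 on the plus strand and the others on the minus strand. The 2 genes with the lowest fold changes, Gstm7 and Gstm6, are next to each other. Gstm1, near 0, lies between Gstm2 and Gstm4, both lower in CAC. The promoter windows of the class are 43.5 to 58.1% identical in pairs. The share of 75-base stretches found in another gene was 0% for Gstm7 and Gstm4, 5.34% for Gstm6, 3.13% for Gstm2 and 14.8% for Gstm1.

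**Figure D3:**
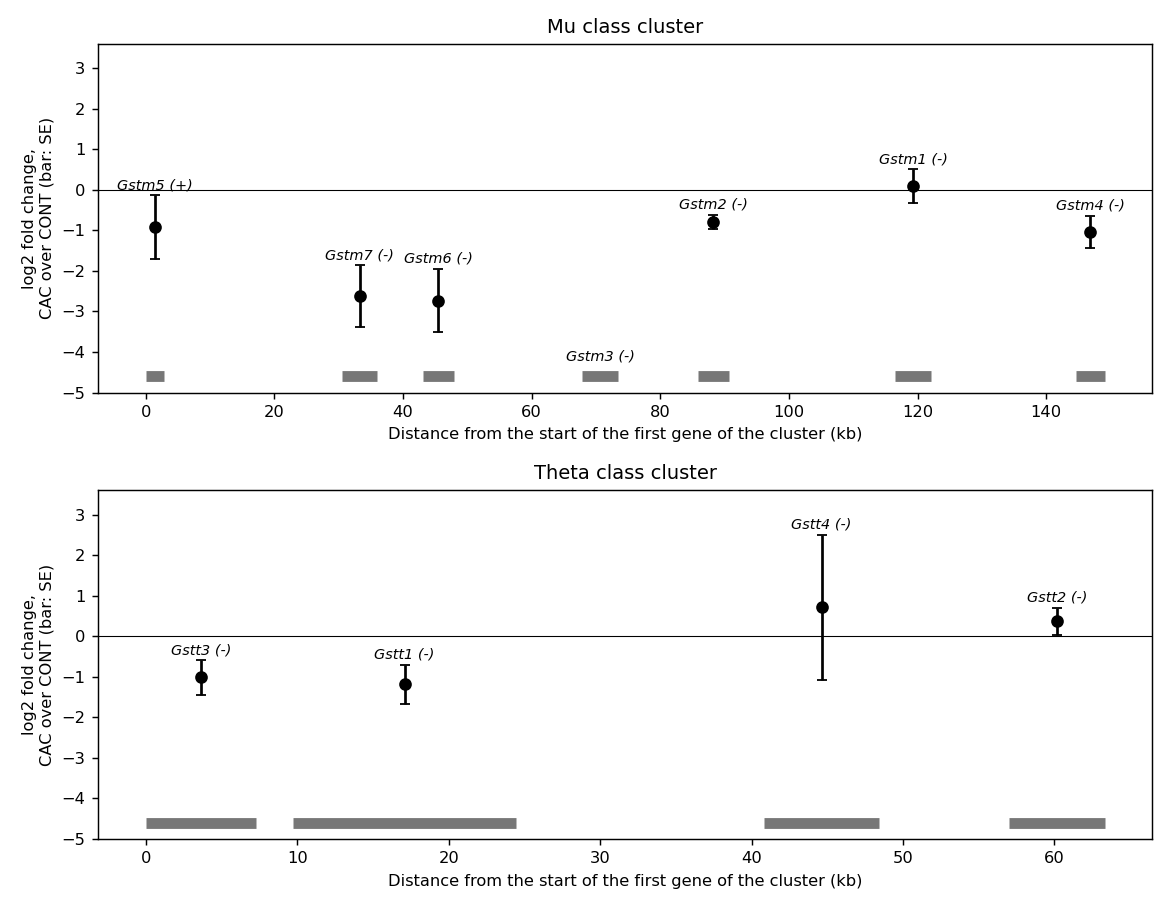
Log2 fold change, CAC over CONT (bar, standard error), of the mu and theta class genes at their place in the 2 gene clusters, with grey bars for the extent of each gene and its strand in brackets. Gstm3 was not tested. Gstm7 and Gstm6 stand side by side at the bottom of the mu cluster, and in the theta cluster Gstt3 and Gstt1 are lower while Gstt4 has a wide error.

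The theta class, whose enzymes act on small halogenated compounds and peroxides, was divided. Gstt1 was at 155, 90.1 and 88.1 CPM in CONT and 74.4, 51.0 and 21.2 CPM in CAC, without overlap. The log2 fold change was -1.19 ± 0.48 (edgeR adjusted p = 0.367), and CAC replicate 3 was lowest. Without CONT replicate 1 the log2 fold change was -0.85. The unadjusted p of Gstt1, 0.0446, was between 0.0542 and 0.17 in 5 of the 6 fits with a library left out, all but that without CAC replicate 1, and 0.0636 with an offset for gene length. Gstt3, next to it, measured 34.2, 17.0 and 28.8 CPM in CONT and 16.6, 16.02 and 6.76 CPM in CAC. These did not overlap either, although CONT replicate 2 and CAC replicate 1 nearly met, and the log2 fold change was -1.02 ± 0.43 (edgeR unadjusted p = 0.0505, adjusted p = 0.378). Gstt2 was at 97.7, 55.4 and 73.3 CPM in CONT and 70.5, 139 and 83.0 CPM in CAC. It was highest in CAC replicate 2, and the log2 fold change of 0.37 ± 0.33 became 0.035 without that library. The cluster lies on chromosome 10 from 75774115 to 75837424 (GRCm38) in the order Gstt3, Gstt1, Gstt4 and Gstt2, all on the minus strand. Of the 7 fibroblast and matrix markers, 5 were lower in CAC at an unadjusted p under 0.05 (71.4%, against 6.95% of all genes). The other 2 were Pdgfra, with a log2 fold change of -0.07, and Dcn, which was at 973, 780.4 and 824 CPM in CONT and 1297, 1498 and 1099 CPM in CAC, above CONT in every CAC library, with a log2 fold change of 0.60 ± 0.27. The 7 markers summed to 2183 to 2778 CPM in CONT and to 1376 to 2119 CPM in CAC, with the lowest value in CAC replicate 3. Of the 6 markers of B and plasma cells, 3 were lower in CAC at an unadjusted p under 0.05 (50%, against 6.95% of all genes), 5 lay below CONT in every CAC library (83.3%, against 10.7%), and the 6 summed to 34.4 to 91.5 CPM in CONT and to 7.82 to 19.01 CPM in CAC. The part of either marker list in the mu and theta values was not tested.

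Gstt4, Gsto2 and Gstm5 had their highest values in the same 2 libraries, 1 of each group. Gstt4 was at 0.892, 12.2 and 0.633 CPM in CONT and 0.164, 0.807 and 21.7 CPM in CAC. Gsto2 was at 2.76, 17.2 and 2.17 CPM in CONT and 2.05, 3.63 and 18.2 CPM in CAC. Both were high in CONT replicate 2 and CAC replicate 3 alone. Cfap43, on the opposite strand, overlaps Gsto2 too and held 3090 counts against 1093, so the Gsto2 values may hold reads of that gene. Gstm5, a mu class gene known for its expression in testis, had its highest values in the same libraries, with 43.5, 215 and 94.5 CPM in CONT and 26.4, 32.9 and 128 CPM in CAC. In the other 4 libraries both CAC values lay below both CONT values. The log2 fold change of Gstm5 was -0.92 ± 0.79 with all libraries, -1.98 ± 0.70 without CAC replicate 3 (edgeR unadjusted p = 0.0315, adjusted p = 0.589) and -0.15 without CONT replicate 2. The 10 testis markers, a list drawn up after values had been seen, summed to 14.4, 1391 and 20.8 CPM in CONT and to 0, 6.05 and 1982 CPM in CAC. No testis marker had a read in CAC replicate 1. The share of testis RNA in these gene values was not tested. Epididymis markers summed to 11858 CPM in CONT replicate 3 and to at most 204 CPM in the other libraries.

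**Figure D4:**
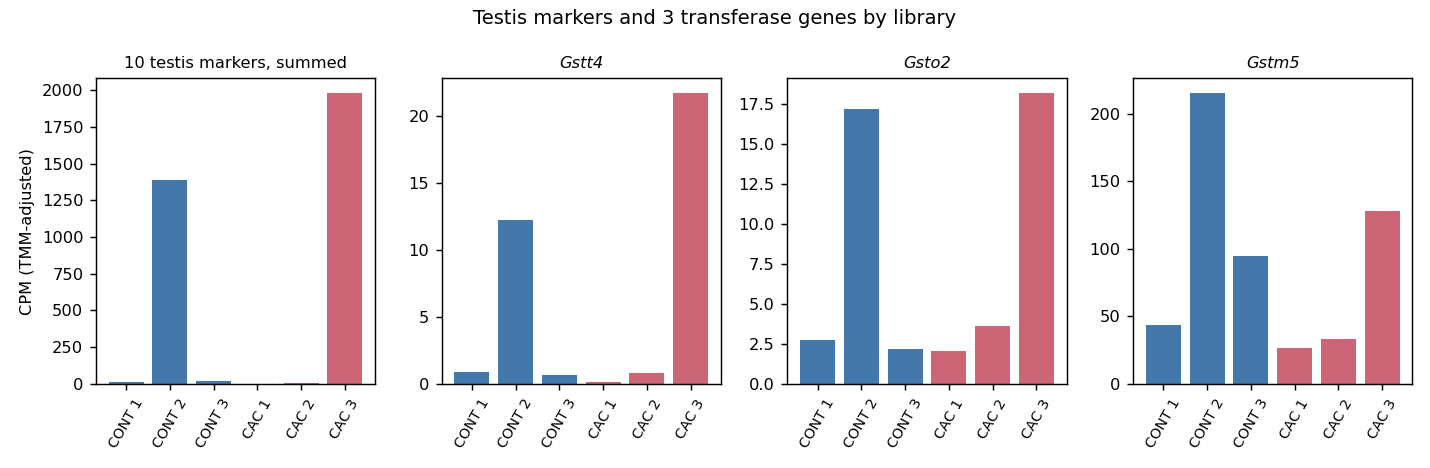
Summed CPM of 10 testis markers and CPM of Gstt4, Gsto2 and Gstm5 in each of the 6 libraries (blue, CONT; red, CAC). The testis markers reach 1391 CPM in CONT replicate 2 and 1982 CPM in CAC replicate 3, and the 3 genes have their highest 2 values there.

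In CONT the glutathione peroxidases Gpx3, Gpx4 and Gpx1 had the highest mean levels of the set per length. The mean FPKM was 799 for Gpx3, the secreted plasma peroxidase, 552 for Gpx4, which reduces phospholipid hydroperoxides, and 339 for Gpx1, the cytosolic enzyme. Mgst1 followed at 234 FPKM and Gstm1 at 221 FPKM. These levels depend on CONT replicate 1. Gpx3 measured 3636, 879 and 866 CPM in CONT and 1627, 5424 and 4073 CPM in CAC, and Gpx4 measured 2326, 635 and 571 CPM in CONT and 638, 466 and 615 CPM in CAC. CONT replicate 1 was thus above the other CONT libraries by a wide margin in both. Its erythroid markers summed to 5687 CPM, against 262 and 394 CPM in the other CONT libraries. The part of red blood cells in the peroxidase values was not tested. With all libraries the log2 fold change of Gpx3 was 1.05 ± 0.74 (edgeR adjusted p = 0.557), and without CONT replicate 1 it was 2.10 ± 0.58 (edgeR adjusted p = 0.245). Gpx4 went from -1.04 ± 0.59 to -0.06 without it. Of the 75-base stretches of Gpx4, 55.3% also occur in Gpx4-ps2 or AC122253.3, so its reads may be shared. Gpx1 overlapped between the groups, with a log2 fold change of 0.11 ± 0.47, and without CONT replicate 1 it had one of 0.71 ± 0.34.

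**Figure D5:**
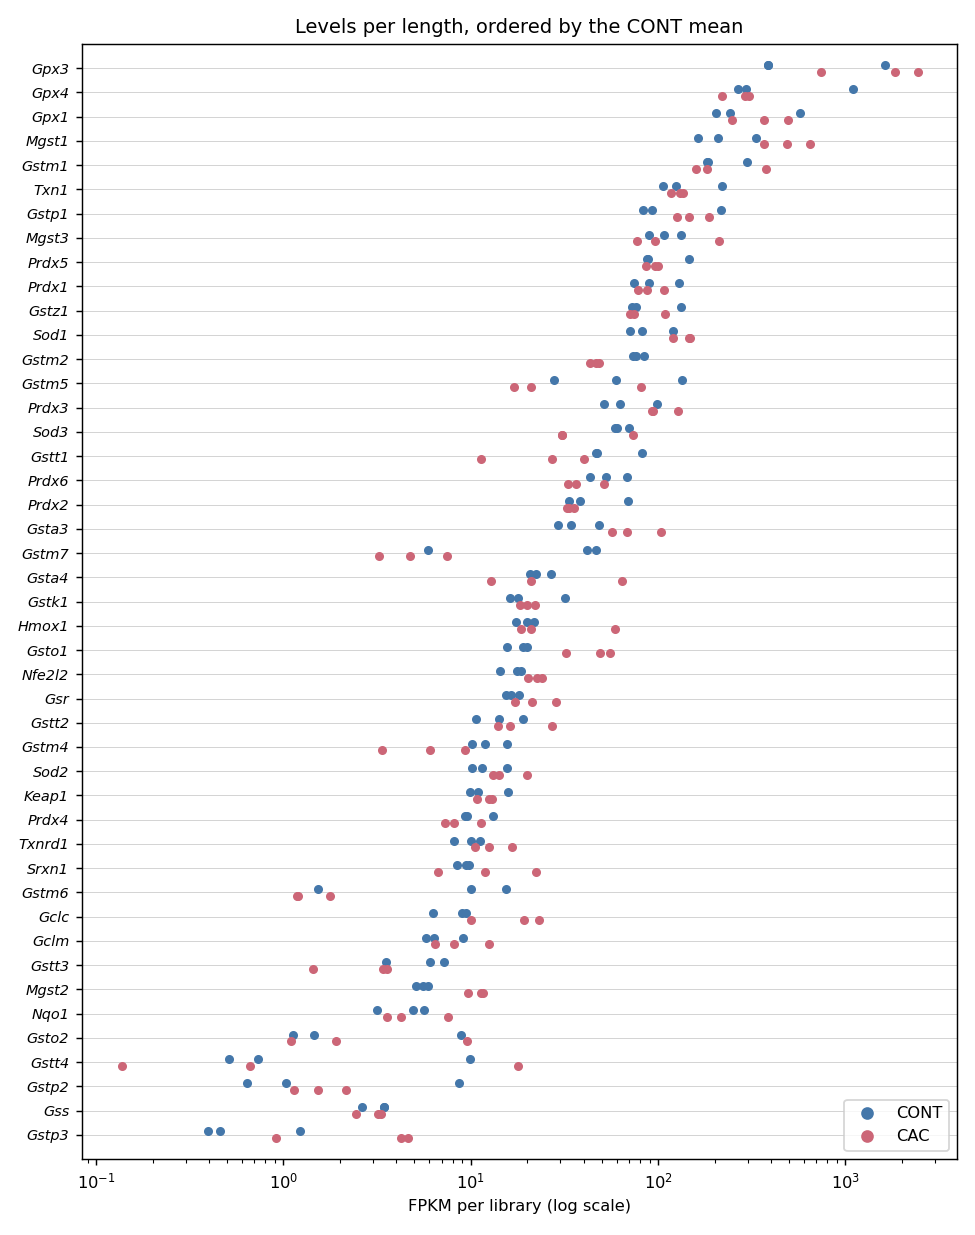
FPKM of each gene in each library on a log axis (blue, CONT; red, CAC), ordered by the CONT mean from Gpx3 at 799 to the lowest, for genes with a mean above 0.5 FPKM in either group. The largest CONT value of Gpx3, Gpx4 and Gpx1 is in each case that of CONT replicate 1, apart from the other 2.

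The peroxiredoxins reduce peroxides, most of them with electrons from thioredoxin. Of these 6 genes, 0 were below the unadjusted threshold (against 13.3% of all genes), and without CONT replicate 1 there was 1 (16.7%, against 15.6%). The median log2 fold change was -0.25 with all libraries and -0.013 without CONT replicate 1. Prdx3, the mitochondrial member, was at 181, 95.2 and 115 CPM in CONT and 166, 170.4 and 232 CPM in CAC. CONT replicate 1 was the only CONT library within the CAC range, and the log2 fold change was 0.54 ± 0.30 with it and 0.86 ± 0.22 without it (edgeR adjusted p = 0.238). The other 5 lay between -0.49 for Prdx2 and -0.12 for Prdx1, all overlapping. Without CONT replicate 1 the values were -0.10 for Prdx2, 0.14 for Prdx1 and 0.08 for Prdx5, and those of Prdx1 and Prdx5 had turned sign. Prdx2 shares its locus with the opposite-strand genes Junb and Rnaseh2a.

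Of the superoxide dismutases, Sod1, the cytosolic enzyme, was at 587, 353 and 406 CPM in CONT and 581, 718 and 720.0 CPM in CAC. CONT replicate 1 was just above the lowest CAC library, and the log2 fold change was 0.58 ± 0.28 with all libraries and 0.84 ± 0.20 without it (edgeR adjusted p = 0.237). Sod2, the mitochondrial enzyme, had a log2 fold change of 0.33 ± 0.26, and of 0.53 without that library. Sod3, the extracellular enzyme, was at 321, 275 and 279.9 CPM in CONT and 332, 142 and 141 CPM in CAC. CAC replicates 2 and 3 were low and CAC replicate 1 was the highest of all libraries. The log2 fold change was -0.51 ± 0.38, and it was -1.003 ± 0.23 without CAC replicate 1 (edgeR adjusted p = 0.255) and -0.29 without CAC replicate 2 or CAC replicate 3. Gstk1, the mitochondrial kappa class gene, and Gstz1, the zeta class enzyme of tyrosine breakdown, had log2 fold changes of -0.15 ± 0.29 and -0.17 ± 0.34, and both were highest in CONT replicate 1. Without that library the sign of both turned, to 0.22 and 0.18.

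Without CONT replicate 1 more of the set was higher in CAC. That library also had the highest erythroid signal. The 7 erythroid markers summed to 5687, 262 and 394 CPM in CONT and to 2413, 1859 and 2451 CPM in CAC. Once it is left out, every CAC library is above every CONT library in that sum. The part of red blood cells in the values of the set was not tested. In the fit without CONT replicate 1, 46 genes were tested, and 13 had an unadjusted p under 0.05 (28.3%, against 15.6% of all genes). Of these, 10 were higher in CAC (21.7%, against 7.3%) and 3 were lower (6.52%, against 8.28%). The groups did not overlap for 20 genes (43.5%, against 37.7%), with CAC above CONT for 15 (32.6%, against 18.1%) and below for 5 (10.9%, against 19.6%). The median log2 fold change was 0.32, and -0.03 over all genes. The 2 fits shared 8 of the genes below the unadjusted threshold. Gclc, Gstm4 and Gstt1 were lost and Gpx3, Gstp1, Nfe2l2, Prdx3 and Sod1 were gained, and 0 genes had an adjusted p under 0.05 in either. With all libraries and an offset for gene length, 11 genes (24.4%, against 14.1%) had an unadjusted p under 0.05. Of these, 8 were higher in CAC (17.8%, against 6.96%) and 3 lower (6.67%, against 7.17%). The groups then did not overlap for 13 genes (28.9%, against 22.6%), 9 with CAC above (20%, against 11.6%) and 4 with CAC below (8.89%, against 11%).

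Around these genes, 5 lists of the wider pathway held 80 genes, of which 79 were tested and 22 (27.8%, against 13.3% of all genes) had an unadjusted p under 0.05. Of these, 14 were higher in CAC (17.7%, against 6.31%) and 8 lower (10.1%, against 6.95%). The median log2 fold change of the 79 was -0.0042, against -0.06 for all genes, and 0 had an adjusted p under 0.05. Among 13 partners and regulators of NRF2, 3 were higher (23.1%, against 6.31% of all genes) and 1 was lower (7.69%, against 6.95%). Maff, a small MAF protein, had 14.2, 10.99 and 11.3 CPM in CONT and 59.6, 42.5 and 51.7 CPM in CAC. No library of either group came near the other group, and the log2 fold change was 2.08 ± 0.21 (edgeR adjusted p = 0.127). Bach1, a repressor that competes with NRF2 for the same elements, had a log2 fold change of 0.72 ± 0.28. Sqstm1, the autophagy receptor p62 that binds KEAP1, had one of 0.64 ± 0.26. Dpp3, another KEAP1 binding protein, was lower, at -0.45 ± 0.15.

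Among 9 genes of NADPH supply, 0 were higher (against 6.31% of all genes) and 2 were lower (22.2%, against 6.95%). Me1, malic enzyme, was at 699.7, 677 and 485 CPM in CONT and 369.9, 201 and 339.8 CPM in CAC. The groups did not overlap, and the log2 fold change was -1.03 ± 0.32 (edgeR adjusted p = 0.288). Idh1, the cytosolic isocitrate dehydrogenase, was also lower without overlap, with a log2 fold change of -0.53 ± 0.18.

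Among 22 genes of glutathione supply, export and thiol repair, 4 were higher (18.2%, against 6.31% of all genes) and 2 lower (9.09%, against 6.95%). Chac1, which breaks glutathione down, was at 3.12, 7.01 and 7.59 CPM in CONT and 22.3, 43.7 and 45.4 CPM in CAC. Its groups did not overlap, with a log2 fold change of 2.64 ± 0.45 (edgeR adjusted p = 0.215). Oplah, which returns oxoproline to glutamate, had a log2 fold change of 0.99 ± 0.29 and also did not overlap. Slc3a2, the heavy chain of the cystine transporter, gave 1.38 ± 0.43 without overlap. Slc7a11, the light chain of that transporter, was at 0.624, 0.569 and 12.6 CPM in CONT and 0.862, 1.82 and 2.79 CPM in CAC. Its groups overlapped, with a log2 fold change of -1.33 ± 1.25. Abcc4, an exporter, gave 1.30 ± 0.51, with groups that overlapped. Ggt1, which splits extracellular glutathione, was lower at -2.81 ± 0.88, but CONT replicate 1 was at 4.28 CPM, below CAC replicate 3 at 4.68 CPM. Hpgds, a sigma class transferase that makes prostaglandin D, was lower at -1.60 ± 0.62, again with CONT replicate 1 inside the CAC range.

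Of 10 further genes of the thioredoxin system, 3 were higher (30%, against 6.31% of all genes) and 0 were lower (against 6.95%). Sesn2, a sestrin, was at 16.7, 30.4 and 26.5 CPM in CONT and 48.9, 99.6 and 65.4 CPM in CAC. The groups did not overlap (log2 fold change 1.54 ± 0.35, edgeR adjusted p = 0.228). Sesn1 gave 0.63 ± 0.22, also without overlap. Txnip, the thioredoxin inhibitor, gave 1.02 ± 0.40, and its CAC replicate 3 lay within the CONT range.

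Among 26 other genes of peroxide, iron and quinone handling, 25 were tested, 4 were higher (16%, against 6.31% of all genes) and 3 lower (12%, against 6.95%). Gpx5, the gene not tested, is also in the list of epididymis markers. It was at 5354 CPM in CONT replicate 3 and at most 0.357 CPM in the other libraries. Cat, the catalase of peroxisomes, was at 753, 538 and 652 CPM in CONT and 1132, 1605 and 2894 CPM in CAC. Each CAC library was above each CONT library, and the log2 fold change was 1.54 ± 0.42 (edgeR adjusted p = 0.268). Selenop, which carries selenium in plasma, gave 1.58 ± 0.51. Cbr1, a carbonyl reductase, gave 1.27 ± 0.42, and Aifm2, which reduces coenzyme Q and guards against lipid peroxidation, gave 0.81 ± 0.29. Nqo2, a relative of Nqo1, was lower at -0.75 ± 0.21. Blvra, the biliverdin reductase downstream of Hmox1, was lower at -0.52 ± 0.19, and Gpx7, a peroxidase of the endoplasmic reticulum, at -0.95 ± 0.36. The macrophage markers summed to 845, 2294 and 2305 CPM in CONT and to 1801, 965 and 1178 CPM in CAC. At an unadjusted p under 0.05, 1 of 10 was lower (10%, against 6.95% of all genes) and 0 were higher (against 6.31%). Their median log2 fold change was -0.54, with 1 of 10 above 0. Gstm6, Gstm7, Ggt1 and Hpgds were also lowest in replicate 1 among the CONT libraries. The part of macrophages in their values was not tested.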

How the data were processed

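The authors extracted total RNA, selected poly(A) mRNA and made libraries with NEB kits. They cleaned the reads with their own scripts and aligned them to the mouse genome of Ensembl release 94. The submitters' processing notes name HISAT2 2.0.5 and featureCounts 1.5.0-p3, and the strand setting of the counting is not given in the sources used here. The authors deposited whole-number counts per gene, without normalization, and FPKM values, which scale the counts to gene length and to a total per library. Of the listed genes, 0.921% are assembled loci with an identifier but no gene name, and they stayed in the fit.

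The main test of the counts used edgeR 4.0.16 under R 4.3.3 (quasi-likelihood test, robust estimation, TMM, filterByExpr by group, condition as the only term, Benjamini-Hochberg adjustment over all 17296 genes tested). The study used DESeq2, and DESeq2 1.42.0 and limma 3.58.1 served as alternatives. The scripts were tested on simulated data first. FPKM values served for levels between genes and, as log2(FPKM + 1) and log2(FPKM + 0.1), for limma. Depth limits the precision: 1 CPM stood for 11.2 to 26.5 reads. The other alternatives were RLE and upper-quartile scaling, other filters, a block for the replicate number, leaving out each library, and offsets for gene length and GC content. Leaving out CONT replicate 1 together with a length offset was chosen after seeing the data. Each library comes from its own mouse, and no batch is given in the labels.

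The genes, although picked by name, and the lists were chosen with earlier results of these data known. Any gene of the set could be named. Values in every library are given for those with an unadjusted p under 0.05, those whose groups do not overlap and a fixed few of the NRF2 pathway, and others were added where 1 library set the value. Of the wider lists, genes with an unadjusted p under 0.05 are named, and also Slc7a11 and Gpx5. The promoters come from RefSeq (GRCm38.p6), coordinates from the deposited table (GRCm38), and shared stretches from GENCODE M21 transcripts.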

Additional observations from a re-analysis of the deposited data

How the results depend on the processing

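Over the alternatives, 27 of the 45 genes tested kept the direction of their log2 fold change, among them Mgst1, Mgst2, Gsto1, Gsta3, Gclc, Nfe2l2, Gstm2, Gstm4, Gstm6, Gstm7, Gstt1 and Gstt3. The number of genes with an adjusted p under 0.05 was 5 with DESeq2, 9 with voom and 0 with each of the other alternatives. The number with an unadjusted p under 0.05 was 20 with voom (44.4%, against 28.2% of all genes) and ran from 6 to 15 when 1 library was left out (13 to 32.6%, against 7.24 to 15.6% of all genes), with 6 without CONT replicate 3, CAC replicate 2 or CAC replicate 3. The number of genes whose groups do not overlap ran from 12 to 20 with 1 library left out (26.1 to 43.5%, against 26.6 to 37.7% of all genes), where fewer libraries make non-overlap easier, and was 21 without CONT replicate 1 with the length offset (45.7%, against 38.1%). The median log2 fold change ran from -0.018 to 0.37 with 1 library left out.

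The replicate numbers did not pair the libraries: libraries of the same number correlated at 0.306, -0.151 and -0.218 in their deviations from the group means over 17296 genes. Between libraries of different numbers the values ran from -0.442 to 0.473. The highest was that of CONT replicate 2 with CAC replicate 3, followed by 0.302 for CONT replicate 3 with CAC replicate 2. With the number as a replicate block, 8 genes had an unadjusted p under 0.05 (17.8%, against 11.5% of all genes) and 0 an adjusted one, and the log2 fold changes of Gsto2 (-0.0049) and Gstt4 (-1.26) turned. With the block and the length offset those of Gstk1 (0.057) and Gstt4 (-0.90) did.

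The log2 fold changes that turned sign elsewhere were those of genes with no unadjusted p under 0.05 with all libraries, although Gstp1 had one without CONT replicate 1 (with or without the length offset), with voom and with the length and GC offset, and Srxn1 had one without CAC replicate 1. With voom they were Gss 0.0089, Gstk1 0.18, Gsto2 -0.47, Gstp2 0.85, Gstt4 -1.22, Keap1 0.20, Prdx1 0.023 and Txn1 0.11. Without CONT replicate 1 and with the length offset, they were Gstk1 0.19, Gsto2 -0.30, Gstp2 0.79, Gstz1 0.18, Keap1 0.21, Prdx1 0.16, Prdx5 0.080 and Txn1 0.051. With the length offset alone it was Gstk1 0.050, and with length and GC content Gstk1 0.027, Keap1 0.070 and Prdx5 0.020. On log2(FPKM + 0.1) they were Gstt4 -0.21 and Keap1 0.0066, on log2(FPKM + 1) Keap1 0.0046, and without a filter Keap1 0.035. With 1 library left out, the ranges that crossed 0 were Gpx1 -0.15 to 0.71, Gss -0.21 to 0.070, Gsta4 -0.48 to 0.87, Gstk1 -0.32 to 0.22, Gstm1 -0.39 to 0.37, Gsto2 -1.37 to 1.70, Gstp1 -0.011 to 0.79, Gstp2 -1.58 to 0.92, Gstt4 -3.22 to 3.32, Gstz1 -0.35 to 0.18, Hmox1 -0.018 to 1.01, Keap1 -0.16 to 0.20, Mgst3 -0.32 to 0.47, Nqo1 -0.24 to 0.40, Prdx1 -0.27 to 0.14, Prdx5 -0.33 to 0.078, Srxn1 -0.0033 to 0.91 and Txn1 -0.44 to 0.13. The cause of these turns was not tested.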
